A study of Mus musculus with 6 samples.

Results

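The guanylate-binding proteins (GBPs) are a family of large GTPases, and 10 mouse genes of it, Gbp2 to Gbp11, were followed here in colorectal tissue of mice with colitis. Of these 10 genes, 9 were found by symbol among the 18268 genes of the expression table, and the level of Gbp11 was not analysed here. The 9 genes were selected on the same measured difference that is described below, so their levels and folds are given as descriptions and no test is built on them. Tissue came from adult male C57BL/6 mice, an inbred strain, and no engineered allele is named for them. All 6 mice had received DSS (dextran sulfate sodium), which damages the colonic epithelium, for 7 days. Through gavage for 6 days, 3 of them were also given berberine (BBR), a plant alkaloid, and the other 3 sulfasalazine (SASP), an aminosalicylate drug used against colitis. Healthy mice and colitis mice without a drug were not analysed here, so each difference is between the drugs and has no untreated level beside it. The labels name colorectal tissue, while the paper names rectal samples for BBR and colon samples for SASP. A difference in gut region between the groups, if there was one, cannot be told apart from the drugs. DSS colitis is an injury model, and each library was made from whole tissue, where fewer cells of a type and less RNA per cell cannot be told apart. BBR mouse 3 stood apart from its group, as its expression profile correlated with those of BBR mice 1 and 2 at r = 0.953 and 0.949 across tested genes. These 2 correlated at 0.987, and the SASP mice among themselves at 0.982 to 0.989. Between the groups r ran from 0.916 to 0.953, and SASP mouse 2 reached 0.953 with BBR mice 1 and 3.

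GBPs belong to the dynamin superfamily. They are made in many cell types after exposure to interferons, above all to interferon gamma (IFN-gamma), which acts through receptor-bound Jak kinases and induces transcription factors such as Irf1. The proteins bind and hydrolyse guanine nucleotides, assemble into polymers, and coat bacteria or the vacuoles that hold intracellular microbes. This coat helps to expose microbial products to inflammasomes, which activate caspases and the pore-forming protein gasdermin D. In the mouse the genes lie in a pair of clusters. According to RefSeq (GRCm38.p6), the order on chromosome 3 is Gbp5, Gbp7, Gbp3, Gbp2b and Gbp2, and the order on chromosome 5 is Gbp8, Gbp9, Gbp4, Gbp10, Gbp6 and Gbp11. Gbp2b, which is not one of the 10 genes, is a close relative of human GBP1, and Gbp11 is annotated as a transcribed pseudogene.

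Transcription factors activated by interferons bind short DNA elements, and matches to such elements in promoters of the chromosome 3 genes are shown. RefSeq promoters, which run from 250 bases before to 50 bases after a transcription start site, were matched for 4 of the 10 members, namely Gbp2, Gbp3, Gbp5 and Gbp7, and for Gbp2b. Both strands were searched for the core of the interferon-stimulated response element (ISRE), which reads TTTC, any 2 bases and TTTC again, and for TTCNNNGAA, the gamma-activated site (GAS). A base could belong to more than 1 match. All lie on the + strand of chromosome 3 in GRCm38.p6. Each stretch below covers the matches within 200 bases before the start site, with 15 bases on either side, and capitals mark a match.
Gbp2, chr3:142620589-142620628: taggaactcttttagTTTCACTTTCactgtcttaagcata
Gbp3, chr3:142559984-142560029: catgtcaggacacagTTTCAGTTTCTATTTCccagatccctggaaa
Gbp5, chr3:142496754-142496905: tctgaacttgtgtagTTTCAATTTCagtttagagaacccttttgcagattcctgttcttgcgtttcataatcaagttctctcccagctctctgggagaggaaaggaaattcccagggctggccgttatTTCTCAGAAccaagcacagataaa
Gbp7, chr3:142530215-142530307: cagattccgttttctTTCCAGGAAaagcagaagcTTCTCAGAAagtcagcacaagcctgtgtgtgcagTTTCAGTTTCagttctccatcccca
Gbp2b, chr3:142594695-142594734: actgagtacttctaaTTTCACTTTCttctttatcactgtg

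An ISRE core was found in the promoter of all 4 of these members. Counted from the start site, it lay from -59 to -50 in Gbp2, from -165 to -156 in Gbp5 and from -53 to -44 in Gbp7. Gbp3 held a pair of cores that overlap, from -45 to -36 and from -39 to -30, in the first of its 2 RefSeq promoters, and the other held none. A GAS was found in Gbp5, from -245 to -237 (outside the stretch shown) and from -52 to -44, and in Gbp7, from -106 to -98 and from -87 to -79. Over all 32851 RefSeq promoters, 3.44% held an ISRE core and 8.30% a GAS. Per gene the shares were 3.99% and 9.55% of 27025 genes. A match describes letters and is not a measured binding site.

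The members were compared first in each mouse. Levels are in FPKM, a count of sequenced fragments divided by transcript length and by the mapped total, which corrects for transcript length and depth and so allows levels of different genes to be set side by side. Fold differences in the text are ratios of group means in FPKM. Differences called log2 fold changes are BBR minus SASP in the mean of log2(FPKM + 1), with a standard error (SE) from limma, and they understate the change of genes with low levels. In all 9 members the 3 BBR values lay below the 3 SASP values. Such a separation was found in 16.6% of the 12072 genes tested, and since the members were chosen by this difference, nothing is read from the contrast between these shares.

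Gbp2 was the most abundant member in every mouse. It is one of the members with a C-terminal CaaX motif, the signal for attachment of a lipid anchor, and it is known for coating the vacuole of Toxoplasma. Gbp2 was measured at 15.06, 18.27 and 21.26 FPKM in BBR mice 1, 2 and 3, and at 876.58, 301.49 and 1001.7 FPKM in SASP mice 1, 2 and 3. The lowest SASP value was 14.2 times the highest BBR value, and SASP mouse 2 stood well below the other two. The mean was 39.9-fold higher in SASP, with a log2 fold change of -5.08 (SE 0.43, n = 3 mice per group).

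Gbp5 also carries a CaaX motif and has been linked to assembly of the Nlrp3 inflammasome. It was measured at 1.26, 1.07 and 1.71 FPKM under BBR and at 34.57, 19.39 and 41.32 FPKM under SASP. SASP mouse 2 was again the lowest of its group, and still 11.3 times the highest BBR mouse. The ratio of means was 23.6, and the log2 fold change was -3.75 (SE 0.28).

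Gbp3 and Gbp7 are the remaining members of the chromosome 3 cluster, and Gbp7 has been described as a partner of the phagocyte NADPH oxidase. Gbp3 was measured at 2.3, 2.81 and 3.7 FPKM under BBR and at 71.33, 32.7 and 78.06 FPKM under SASP, which is a 20.7-fold higher mean under SASP and a log2 fold change of -3.89 (SE 0.33). Gbp7 was measured at 3.91, 3.9 and 4.67 FPKM under BBR and at 59.47, 42.69 and 72.33 FPKM under SASP, with a 14.0-fold higher mean and a log2 fold change of -3.49 (SE 0.20). Gbp7 had the narrowest spread between SASP mice of all members, with a coefficient of variation of 25.6%.

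The chromosome 5 members were lower than Gbp2 throughout, and apart from Gbp6 their BBR values all fell below 1 FPKM. Gbp6 was measured at 1.18, 1.53 and 1.37 FPKM under BBR and at 69.82, 41.23 and 80.45 FPKM under SASP. Its groups were the furthest apart by their nearest values, as the lowest SASP mouse was 26.9 times the highest BBR mouse, and its log2 fold change was -4.73 (SE 0.24). Gbp4 was measured at 0.75, 0.57 and 0.96 FPKM under BBR and at 53.38, 15.95 and 38.32 FPKM under SASP, a 47.2-fold difference of means and a log2 fold change of -4.24 (SE 0.40). In Gbp4 the highest SASP value was in mouse 1, whereas in Gbp6 it was in mouse 3.

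Gbp8 and Gbp9 were the remaining chromosome 5 members above 0 in both groups. Gbp8 was measured at 0.86, 0.97 and 0.89 FPKM under BBR and at 25.82, 5.25 and 20.68 FPKM under SASP. Its mean was 0.907 FPKM under BBR and 17.3 FPKM under SASP, a ratio above that of Gbp7. The log2 fold change of Gbp8 was -3.01 (SE 0.51) and became -3.82 with 0.1 in place of 1 added to FPKM. Its SE was the largest of these members, and SASP mouse 2 reached 30.4% of the SASP mean while mouse 1 reached 149.7%. Gbp9 was measured at 0.77, 0.98 and 0.98 FPKM under BBR and at 9.42, 6.41 and 15.03 FPKM under SASP, with an 11.3-fold higher mean under SASP and a log2 fold change of -2.49 (SE 0.27).

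Gbp10 was listed at 0 in all 3 BBR mice and at 4.7, 2.1 and 5.45 FPKM in SASP mice 1, 2 and 3, so no fold is given. Of the 18268 genes in the expression table, 1297 to 1456 were at 0 in each BBR mouse and 1453 to 1624 in each SASP mouse. Gbp2b, outside the 10, was measured at 0.51, 0.66 and 0.29 FPKM under BBR and at 2.25, 0.69 and 1.61 FPKM under SASP. Gbp2b fell short of the filter on low values (at least 1 FPKM in at least 3 of the 6 mice) and was not tested. Its groups did not overlap, but their nearest values, 0.66 and 0.69 FPKM, almost met.

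**Figure D1:**
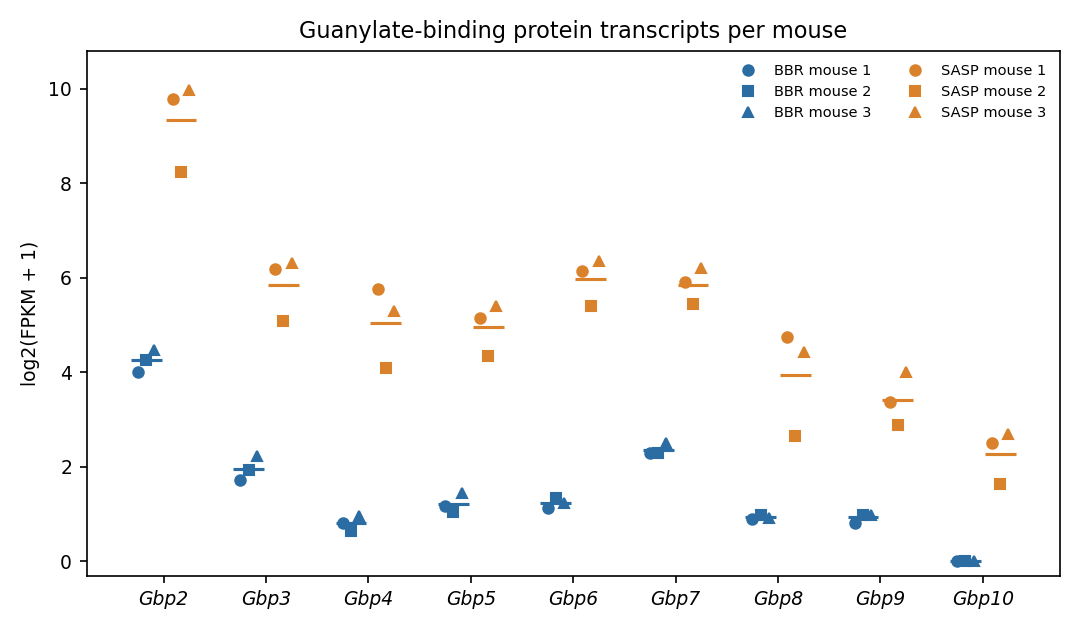
Level of each member in each mouse, as log2(FPKM + 1). Each point is 1 mouse, blue for BBR and orange for SASP, and a bar marks the mean of a group's 3 mice. All 3 SASP points lie above all 3 BBR points in each of the 9 members, and SASP mouse 2 (square) is the lowest SASP point in each.

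Within a group the members kept an order in which only some neighbours were apart. Under BBR, Gbp2 was followed by Gbp7 (4.16 ± 0.442 FPKM, SD, n = 3) and Gbp3 (2.94 ± 0.709), and the ranges over the 3 mice of these members did not overlap. Gbp6 (1.36 ± 0.175) and Gbp5 (1.35 ± 0.329) overlapped each other, as did Gbp9, Gbp8 and Gbp4, at 0.91, 0.907 and 0.76 FPKM. Under SASP, Gbp2 (727 ± 373 FPKM) was again apart from all others, while each neighbouring pair among Gbp6, Gbp3, Gbp7, Gbp4, Gbp5, Gbp8 and Gbp9 overlapped. Their means went down from 63.8 FPKM for Gbp6 through 60.7 for Gbp3, 58.2 for Gbp7, 35.9 for Gbp4, 31.8 for Gbp5 and 17.3 for Gbp8 to 10.3 for Gbp9. Gbp4 held rank 8 of the 9 under BBR and rank 5 under SASP, with a value below those of Gbp5 in each BBR mouse and above those of Gbp5 in SASP mouse 1 only. Gbp2 supplied 57.7% to 60.7% of the summed FPKM of the 9 members in BBR mice and 64.5% to 74.0% in SASP mice. That sum was 26.1, 30.1 and 35.5 FPKM in BBR mice 1, 2 and 3 and 1205, 467 and 1353 FPKM in SASP mice 1, 2 and 3.

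Over the whole family, 9 of 9 tested members were called lower in BBR, a call meaning a Benjamini-Hochberg adjusted p below 0.05 in limma over all genes tested. Of all tested genes, 5.04% were lower and 3.82% higher in BBR by this rule, and because the rule that chose the members used the same contrast, the count describes them and tests nothing. Lower calls made up 56.9% of all calls, and 70.4% with median-ratio scaling between mice. The median log2 fold change of the 9 members was -3.75, against 0.10 for all tested genes. It was -3.82 over the 8 members without Gbp10, whose fitted value depends on the constant added to FPKM. Gbp4, Gbp8, Gbp9 and Gbp10 reached the filter on low values only through their SASP mice. In the other 5 members every BBR mouse was at or above 1 FPKM. The clusters overlapped in size of change, from -5.08 to -3.49 for the 4 members on chromosome 3 and from -4.73 to -2.49 for the 4 on chromosome 5 that had a fold.

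Leaving out 1 mouse ended the call of Gbp8 and of no other member. Gbp8 lost its call without BBR mouse 1 (log2 fold change -2.99), without BBR mouse 2 (-3.04), without SASP mouse 1 (-2.61) and without SASP mouse 3 (-2.76). Without BBR mouse 3, the library that stood apart, all 9 members were still called, with a median log2 fold change of -3.86.

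**Figure D2:**
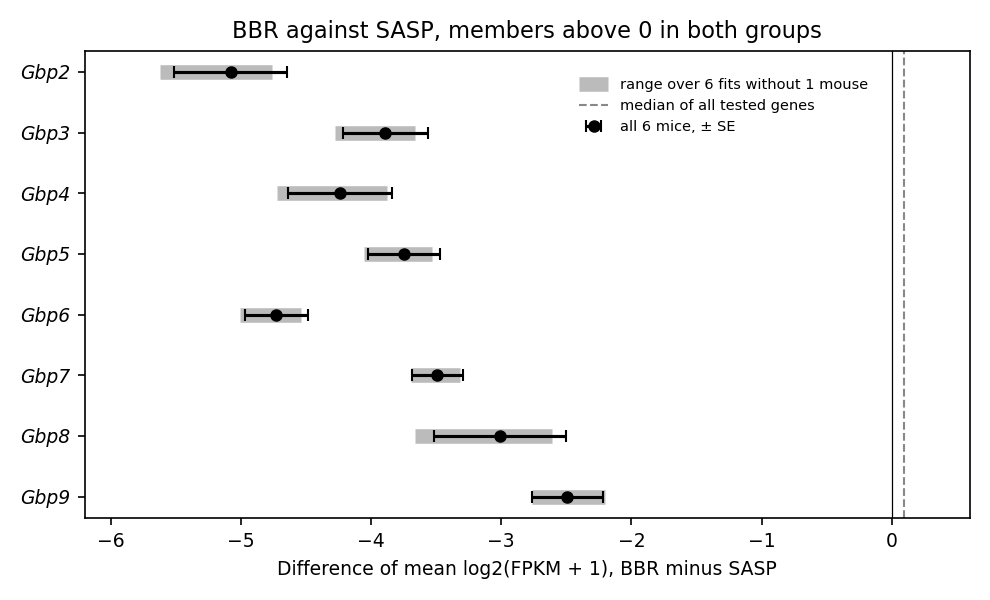
Difference between BBR and SASP for the 8 members above 0 in both groups, as the difference of mean log2(FPKM + 1). Points are fits of all 6 mice with their SE, grey bars span the 6 fits that leave out 1 mouse, and the dashed line is the median of all tested genes at 0.10. Values run from -5.08 for Gbp2 to -2.49 for Gbp9, and each grey bar stays below -2.2.

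The SASP mice differed among themselves in the same order for most members. SASP mouse 2 was the lowest of its group in 9 of 9 members, and this held for 25.3% of all tested genes. Its Gbp8 was at 22.6% and its Gbp2 at 32.1% of the mean of SASP mice 1 and 3, while Gbp7 stood at 64.8%, the highest share of the 9. Over all tested genes the median of this share was 105%, and 2.74% of them were at or below 65%. SASP mouse 3 was the highest in Gbp2, Gbp3, Gbp5, Gbp6, Gbp7, Gbp9 and Gbp10, and SASP mouse 1 in Gbp4 and Gbp8. In BBR mice the spread was narrower, with coefficients of variation from 6.27% in Gbp8 to 25.7% in Gbp4, compared with 25.6% in Gbp7 to 62.1% in Gbp8 under SASP. Gbp8 rested on only about 39 to 45 reads per BBR mouse, so its small spread there is not read as agreement between mice.

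**Figure D3:**
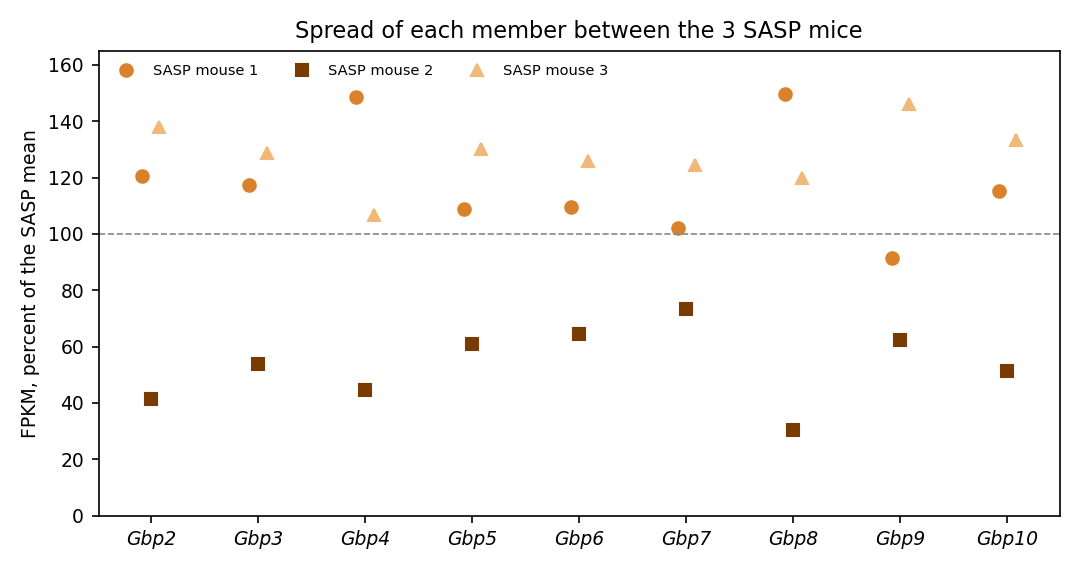
Each member's FPKM in the 3 SASP mice as a percent of that member's SASP mean (dashed line at 100). Each point is 1 mouse. Mouse 2 lies between 30.4% (Gbp8) and 73.4% (Gbp7), below both other mice in all 9 members.

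Depth and sequence set how far single members can be told apart. Steps between low FPKM values gave an approximate depth of 18900000 to 19400000 reads in BBR mice and 20000000 to 20500000 in SASP mice. On that scale Gbp2 rested on about 702 to 1017 reads per BBR mouse and 14950 to 49424 per SASP mouse. Gbp8, the member with fewest, rested on about 39 to 45 reads per BBR mouse and 254 to 1276 per SASP mouse, leaving Gbp10 aside. The study's methods describe reads of 50 bases, but they list no SASP samples, and the labels here name an Illumina kit. The read length of these libraries is therefore not certain. Windows of 50 bases were taken along the longest coding transcript of each gene (GENCODE M21), or the pseudogene transcript for Gbp11. Each window was looked up in all other genes, and the shares hold for this window length only. Windows shared exactly with another gene made up 0.898% in Gbp5, 2.07% in Gbp2, 4.79% in Gbp3, 9.56% in Gbp9, 12.8% in Gbp4 and in Gbp7 and 21.2% in Gbp8.

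Gbp6 and Gbp10 are the exception. In Gbp6 90.2% and in Gbp10 82.5% of the windows occurred in another gene, most often in the predicted gene Gm43302, which has no values of its own here. Of Gbp10 windows, 70.6% occurred in Gbp6, and their coding sequences were identical at 98.4% of aligned bases. The division of reads between these genes is therefore uncertain, including the 0 of Gbp10 under BBR. How far this would hold for longer reads was not tested. Summed, Gbp6 and Gbp10 reached 1.18, 1.53 and 1.37 FPKM in BBR mice and 74.52, 43.33 and 85.9 FPKM in SASP mice, a 49.9-fold difference of means with no overlap. Gbp10 made up 4.85% to 6.34% of that sum in SASP mice. Among all pairs, coding identity was 61.6% to 82.5% within chromosome 3 (10 pairs, Gbp2b included) and 89.6% to 98.4% within chromosome 5 (15 pairs, Gbp11 included). Between the clusters it was 60.9% to 76.3% (30 pairs, with Gbp2b and Gbp11 included).

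**Figure D4:**
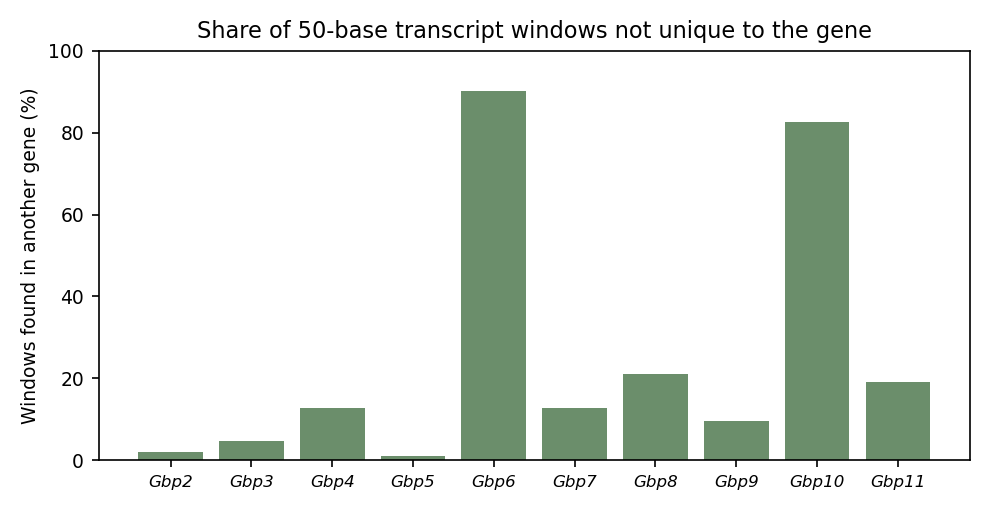
Share of 50-base windows of each member's transcript that occur exactly in at least 1 other gene, in percent. Bars for Gbp6 (90.2%) and Gbp10 (82.5%) stand above all others, and Gbp8 follows at 21.2%.

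Genes beside the clusters were looked at next, since they share the chromosomal position but not the family. Of the 3 protein-coding genes on each side of each cluster, 12 in all, 6 were tested and 0 were called in limma, with 1 at an unadjusted p under 0.05. Their log2 fold changes ranged from -0.50 in Lrrc8b, the gene with that p, to 0.23. Among those tested, Lrrc8b and Pdlim5 were lower in BBR without overlap, a separation found in 16.6% of all tested genes. Kyat3, the gene that follows Gbp2, encodes a kynurenine aminotransferase and was measured at 4.7, 4.28 and 1.96 FPKM under BBR and at 4.53, 3.55 and 4.96 FPKM under SASP. Lrrc8b, next to Gbp11, encodes a subunit of a volume-regulated anion channel and was measured at 1.88, 2.35 and 2.55 FPKM under BBR and at 2.98, 4.51 and 3.46 FPKM under SASP.

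In the IFN-gamma pathway, the genes called were transcriptional regulators and a feedback inhibitor, all lower in BBR. Not all of them act upstream of the GBPs, and the receptors and kinases did not pass the test. Of 9 pathway genes tested, 5 were lower in BBR and 0 higher, with a median log2 fold change of -1.68. Irf1, a factor induced by IFN-gamma that binds GBP promoters, was measured at 135.13, 115.7 and 128.21 FPKM under BBR and at 422.06, 328.99 and 484.24 FPKM under SASP. Its log2 fold change was -1.68 (SE 0.16, adjusted p = 0.00478 in limma), and SASP mouse 2 was the lowest of its group as in the GBPs. Irf8, a myeloid and interferon-induced factor, was lower in BBR, at -2.21 on the log2 scale (SE 0.16, limma adjusted p = 0.00171). Ciita, the regulator of MHC class II genes, was lower as well, at -2.54 (SE 0.22, limma adjusted p = 0.00289). Its levels were 0.58, 0.66 and 0.34 FPKM under BBR and 9.26, 5.47 and 9.52 FPKM under SASP. Socs1, a feedback inhibitor of Jak kinases, and Nlrc5, a regulator of MHC class I genes, were the others called. Ciita and Nlrc5 reached the filter on low values only through their SASP mice. The receptor genes Ifngr1 and Ifngr2 and the kinase genes Jak1 and Jak2 had log2 fold changes of -0.07, 0.45, 0.16 and 0.20. Ifng, the ligand, was listed at 0 in all 3 BBR mice and at 1.19, 0.3 and 0.21 FPKM in SASP mice, and was too low to be tested. The count of 5 was 4 without BBR mouse 1, SASP mouse 1 or SASP mouse 3, and without BBR mouse 3 the list also had 1 gene called higher.

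Of 10 tested genes of the type I and type III interferon pathway, 3 were lower in BBR and 0 higher, with a median of 0.06. The 3 were the factors Stat2 (-1.83, SE 0.14) and Irf9 (-1.09, SE 0.17), which act in the complex that binds ISREs, and Usp18 (-3.02, SE 0.45), a feedback inhibitor of the type I receptor. This count was 1 without BBR mouse 1 or SASP mouse 3, 2 without SASP mouse 1 and 4 without SASP mouse 2. Without BBR mouse 3, 5 genes of the list were also called higher. Usp18, at 1.35, 0.73 and 0.99 FPKM under BBR, needed SASP mice to reach the filter on low values.

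Related GTPases were compared because they act beside the GBPs. Immunity-related GTPases, which prepare vacuoles for GBP binding, were lower in BBR in 8 of 8 tested genes, with a median log2 fold change of -5.35, and the most similar in pattern to the GBPs was Ifi47. Gm12250, a gene of this list, reached the filter on low values only through its SASP mice. Tgtp1 (0.15, 0.15 and 1.14 FPKM under BBR) and Tgtp2 (1.21, 1.04 and 0.48 FPKM) also needed SASP mice to reach it. Gvin1, a very large interferon-inducible GTPase, did not pass the test, at 44.95, 41.05 and 6.73 FPKM under BBR and 36.06, 21.5 and 25.57 FPKM under SASP. Its log2 fold change was -0.19, and it turned to 0.65 without BBR mouse 3, to 0.01 without SASP mouse 1 and to 0.70 with array quality weights, where it was called higher. Dynamins, atlastins and mitofusins share the fold of the GBPs without interferon control, and 0 of 9 tested were called, with 5 at an unadjusted p under 0.05 and a median of 0.17. Atl1 (0.64), Dnm1 (0.68) and Dnm2 (0.32) had the smallest p, and none of them passed after adjustment. Without BBR mouse 3, 1 gene of this list was called higher, and with array quality weights 2 were called lower and 5 higher.

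Genes on which the GBP proteins depend were measured in the same fit. The enzymes that add and process the lipid anchor of CaaX proteins, such as farnesyltransferase (Fnta, Fntb), had 0 of 6 genes called, 0 at an unadjusted p under 0.05, and a median log2 fold change of 0.05. Of 11 genes of Atg conjugation and of the Gabarap and LC3 families, which recruit GBPs to vacuoles, 0 were lower and 3 higher in BBR, with a median of 0.23. These were Gabarapl1 (0.93, SE 0.17), Map1lc3a (0.79, SE 0.15) and Map1lc3b (0.62, SE 0.14). That count of 3 was 0 without BBR mouse 1, SASP mouse 1 or SASP mouse 3, 1 without BBR mouse 2 or SASP mouse 2, and 5 without BBR mouse 3.

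Downstream of the GBPs, 2 of 9 tested inflammasome and pyroptosis genes were lower in BBR and 0 higher, with a median of -0.56. Gsdmd, which encodes gasdermin D, was measured at 155.2, 125.66 and 177.41 FPKM under BBR and at 239.99, 225.13 and 270.94 FPKM under SASP (log2 fold change -0.69, SE 0.15). Casp1, the inflammasome caspase, was at 116.54, 103.92 and 108.06 FPKM under BBR and 163.42, 143.95 and 179.71 FPKM under SASP (-0.56, SE 0.12). That count of 2 was 0 without BBR mouse 1, BBR mouse 2, SASP mouse 1 or SASP mouse 3, 1 without SASP mouse 2 and 5 without BBR mouse 3, and it was 0 with no filter on low values. Casp4, the mouse sensor of cytosolic lipopolysaccharide, did not pass, and BBR mouse 3 stood at 75.02 FPKM against 16.03 and 11.91 in the other BBR mice.

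**Figure D5:**
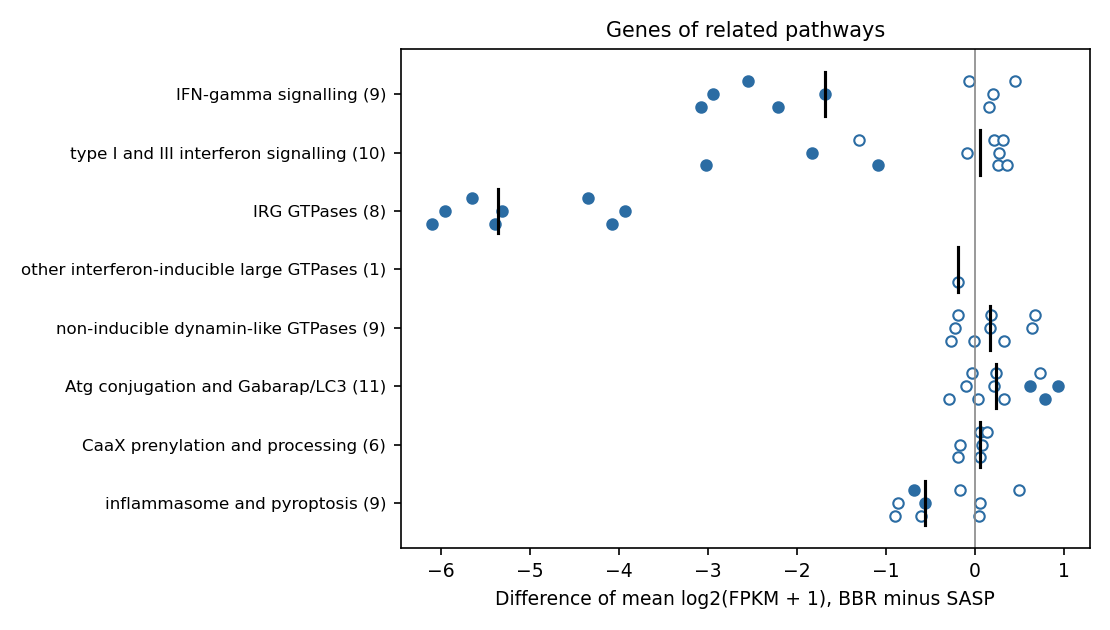
Difference between BBR and SASP, as the difference of mean log2(FPKM + 1), for each tested gene of the related pathways, with the number of genes in brackets. Each circle is 1 gene, filled where the limma adjusted p was under 0.05, and a black line marks a list's median. Filled circles lie to the left in the IFN-gamma (5 of 9), type I and III (3 of 10) and immunity-related GTPase (8 of 8) lists and to the right in the Atg list (3 of 11).

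Other genes followed the members across the 6 mice. Ranked by Pearson's r of log2(FPKM + 1) with the mean of the 9 members, the 10 nearest genes outside the family that are reported were Pold3 (r = 0.999), Ifi47, Fas, Serpina3f, Ifit3, Nlrc5, Parp14, Lap3, Psmb9 and Parp9 (r = 0.997). The 6 points fall into the 2 drug groups, so r mostly restates that separation, and it describes a pattern only. Size was not part of it, as Pold3, a DNA polymerase delta subunit, had a log2 fold change of -0.62 and Psmb9, an immunoproteasome subunit, one of -3.20.

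Markers of cell types were set beside the members. Colonic epithelium markers were abundant, with a summed level of 5561 to 7649 FPKM under BBR and 5381 to 5535 FPKM under SASP and no marker of any list was at 0 in all mice. Of the 9 epithelium markers, 1 was called (Cdx2, higher in BBR), and at an unadjusted p under 0.05 1 was lower and 2 were higher. The lower one was Krt20, a marker of mature surface cells, with a log2 fold change of -1.18 and no overlap between groups, and the other higher one was Car1, at 2.48. Markers of all leukocytes summed to 15.4 to 25.5 FPKM under BBR and 24.4 to 56.4 FPKM under SASP, a 2.05-fold difference of means, and 0 of 5 were called, with 3 lower at an unadjusted p under 0.05. Macrophage and monocyte markers summed to 129 to 168 FPKM under BBR and 236 to 260 FPKM under SASP, 1.68-fold higher in the mean. Cd14, at a mean of 24.8 FPKM under BBR and 92.0 FPKM under SASP, was the 1 of 8 called, and with Lyz2, at 76.9 and 104.9 FPKM, it made up most of that difference. The median log2 fold change of the macrophage list was -0.16, and Mrc1 (0.42, with no overlap between groups), Csf1r (0.12) and Adgre1 (0.06) had values in the other direction. T and NK cell markers summed to 4.4 to 7.75 FPKM under BBR and 4.19 to 9.99 FPKM under SASP, with 0 of 2 tested genes called and 0 at an unadjusted p under 0.05. B cell markers summed to 0.96 to 2.38 FPKM under BBR and 4.81 to 29.1 FPKM under SASP, an 8.97-fold difference of means with no overlap, and 1 of 2 tested was called (Cd79b, lower in BBR). Cd79b reached the filter on low values only through its SASP mice.

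Within the SASP group, mouse 2 also had the lowest sum of the leukocyte, macrophage, T and NK cell and B cell markers, at 24.4, 236, 4.19 and 4.81 FPKM. Of the macrophage markers, however, only Cd14 was lowest in mouse 2, at 116.25, 75.73 and 83.93 FPKM in SASP mice 1, 2 and 3. Adgre1, Cd68, C1qa and Mrc1 were highest in mouse 2, and Csf1r, Lyz2 and C1qb were in between. Outside the immune lists, mouse 2 had the highest SASP sums of epithelium, smooth muscle and fibroblast markers, at 5535, 1800 and 139 FPKM. Its endothelial sum, 9.74 FPKM, was in between. The GBPs differed by 11.3-fold to 47.2-fold between groups where a ratio could be formed, the leukocyte sum by 2.05-fold with overlapping ranges, the macrophage sum by 1.68-fold and the B cell sum by 8.97-fold, both without overlap. The stromal lists moved the other way. Smooth muscle markers summed to 2101 to 4870 FPKM under BBR and 592 to 1800 FPKM under SASP with 0 of 5 called and 4 higher at an unadjusted p under 0.05. Fibroblast markers summed to 170 to 243 and 75.5 to 139 FPKM with 2 of 5 called higher (Col1a1 and Lum), and endothelial markers to 14.4 to 26.6 and 7.17 to 10.1 FPKM with 1 of 5 called higher (Emcn). Apart from Cd14 (limma adjusted p = 0.0089), the called markers lay near the threshold. Their limma adjusted p was 0.042 for Cdx2, 0.049 for Cd79b, 0.048 for Col1a1, 0.044 for Lum and 0.035 for Emcn. Marker calls were not followed in the fits without 1 mouse. The part of these cell type markers in the levels of the GBPs was not tested.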

How the data were processed

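Colorectal RNA of 3 BBR and 3 SASP mice was measured by RNA sequencing. Groups came from the treatment labels, and replicate numbers in accession order pair no mice. Samples are labelled as separate but not tied to separate animals, so p-values measure the spread between these samples. The authors calculated FPKM per gene with RSEM after filtering and Bowtie2 alignment (versions 1.2.12 and 2.2.5, build mm9, per the submitters' processing notes), and RSEM divides reads that fit several genes. The deposited FPKM have 2 decimals. The annotation is not given in the sources used here. The methods describe ribosomal RNA depletion and single-end nanoball sequencing but list no SASP samples, whereas the labels name an Illumina kit. Genes with at least 1 FPKM in at least 3 of 6 mice (12072) were tested on log2(FPKM + 1) in limma 3.58.1 (R 4.3.3), with a mean-variance trend, two-sided p-values, Benjamini-Hochberg adjustment and a threshold of 0.05. Members and lists were chosen with earlier results of these data known. All members were named, plus up to 3 genes with the smallest p per list, the 10 nearest in pattern, and some genes named for their position or role after their values were seen. Sequences came from RefSeq (GRCm38.p6), and GENCODE M21 windows were matched by symbol. Coordinates in mm9 were not used. Alternatives covered pseudocount, filter, scaling, trend, array weights and each mouse left out. A gene of 1 list and a gene near in pattern are not reported here and were left out of the lists' counts.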

Additional observations from a re-analysis of the deposited data

How the results depend on the processing

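The count of members lower in BBR was 9 in 7 of the 8 alternatives that kept all mice, and 8 of 8 tested at a mean of at least 5 FPKM, where Gbp10 was not tested. Without 1 mouse it was 8 to 9. Their median log2 fold change, -3.75, was -4.42 with a pseudocount of 0.1 and -4.51 with 0.01, and -4.06 to -3.53 without 1 mouse. The 7 members other than Gbp8 and Gbp10 kept their call in all 14 alternatives, and Gbp8 in 10, losing it in 4 of the 6 fits without 1 mouse. No member changed sign. The number of all genes called, 1069 (56.9% lower in BBR), was 608 with no filter, 1737 with quantile normalization, 1683 with median-ratio scaling (70.4% lower) and 7126 with array weights (34.9% lower). Without 1 mouse it ran from 96 (SASP mouse 3, 85.4% lower) to 4051 (BBR mouse 3, 33.8% lower), and was 133 without BBR mouse 1, 376 without BBR mouse 2, 127 without SASP mouse 1 and 522 without SASP mouse 2. Percentages of calls that were lower were 82.0, 80.9, 79.5 and 64.4 in these. Median-ratio scaling moved the median of all tested genes from 0.10 to -0.02. With array weights the lists had more calls, such as 5 lower and 5 higher for type I and III interferon, 7 lower and 1 higher for the inflammasome and 1 lower and 7 higher for the Atg list, and 1 lower and 1 higher for CaaX processing. The cause of these shifts was not tested. No paired analysis was possible because the groups share no replicate numbers in the labels.

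With 3 mice per group, an exact permutation test of a single gene cannot give a two-sided p below 0.10. FPKM hold no counts, so depth is only estimated and no counting interval is given.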
